A study of Mus musculus with 2 samples.

Results

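The genes described here are 10 genes of prostaglandin synthesis and reception, chosen by name from a table of 37451 genes measured by RNA-Seq in primary bone marrow-derived macrophages (BMDMs) of the mouse. They are the phospholipase gene *Pla2g4a*, the cyclooxygenase genes *Ptgs1* and *Ptgs2*, the terminal synthase genes *Ptges*, *Ptges2* and *Tbxas1*, the receptor genes *Ptger2*, *Ptger4* and *Ptgir*, and *Alox5ap*, whose product serves the neighbouring leukotriene branch. Each of the 10 names matched 1 gene of the table. The series is the control RNA-Seq of a study that maps where tristetraprolin (TTP), an RNA-binding protein encoded by *Zfp36*, binds in the macrophage transcriptome. It compares 1 library of WT BMDMs (C57BL/6 littermates) with 1 library of ΔM BMDMs (C57BL/6 TTP fl/fl LysMCre), in which a Cre recombinase made from the lysozyme M locus deletes *Zfp36* in myeloid cells. Mice of both genotypes were 7 to 9 weeks old at bone marrow isolation, and the cells were grown in CSF-1. All cells of both genotypes also received 100 µM 4-thiouridine for 16 h and 10 ng/ml LPS for 6 h, so neither an unstimulated nor an unlabeled state was analysed here. These times come from the treatment protocol, and the tag LPS7 in both sample titles is not explained in the sources used here. Neither genotype was replicated, so no p-values are given, and whether several mice were pooled is not stated in the sources used here.

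Prostaglandins are made when a phospholipase A2 frees arachidonic acid from membrane lipids, a cyclooxygenase turns it into prostaglandin H2, and a terminal synthase converts this intermediate into prostaglandin E2, prostacyclin, thromboxane or another prostanoid. The products leave the cell and act through G protein-coupled receptors, several of which raise cyclic AMP in macrophages and dampen cytokine release. LPS-stimulated macrophages are a classical source of prostaglandin E2. The mRNA of the inducible cyclooxygenase carries adenine- and uridine-rich elements in its 3′ UTR, the type of sequence that TTP preferentially binds. The study reports that binding in the 3′ UTR was needed for decay through TTP but alone did not suffice. Most mRNAs bound there were stable, and a minority decayed in a manner that depended on TTP. Among mRNAs bound in introns, such decay was rare.

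In the ΔM library, both cyclooxygenase mRNAs were higher than in the WT library, *Ptgs2* by 1.85-fold and *Ptgs1* by 2.38-fold. Both microsomal prostaglandin E synthase mRNAs were lower, *Ptges* at 0.704 and *Ptges2* at 0.527 of the WT level. The mRNA of the receptor *Ptger4* was at 0.692 of the WT level. *Pla2g4a* and *Alox5ap* were at 1.02 and 0.999 of the WT level, and *Tbxas1* and *Ptgir* at 0.921 and 0.885. *Ptger2* was close to the detection limit in both libraries.

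The deposited values are FPKMs (fragments per kilobase of transcript, scaled to the number of mapped fragments), a scale per length, so that levels of different genes can be set side by side. Depth was estimated from the steps between low FPKMs at about 37000000 fragments in WT and 32800000 in ΔM, and each level below is followed by an approximate 95% Poisson interval from these estimates. Intervals of levels and of ratios cover counting error only, not variation between cultures or mice. The targeted gene *Zfp36* had 65.3 FPKM in the WT and 16.7 FPKM in the ΔM library, so its mRNA was reduced but not absent in the library labelled ΔM. All 7 macrophage markers were present, with *Csf1r* at 104 and 119 FPKM, *Cd68* at 388 and 390 FPKM and *Emr1* at 380 and 357 FPKM in WT and ΔM. *Lyz2*, the gene whose locus carries the Cre, was at 2481 and 1356 FPKM. None of 37 markers of B cells, T and NK cells, neutrophils, mast cells, platelets, dendritic cells, stroma, endothelium and erythroid cells reached 1 FPKM in either library. The highest of them was at 0.58 FPKM, 12 were at 0 in both libraries, and their summed FPKM was 2.80 in WT and 2.03 in ΔM. In such bulk samples, fewer cells that express a gene and less RNA of that gene per cell cannot be told apart.

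**Figure D1:**
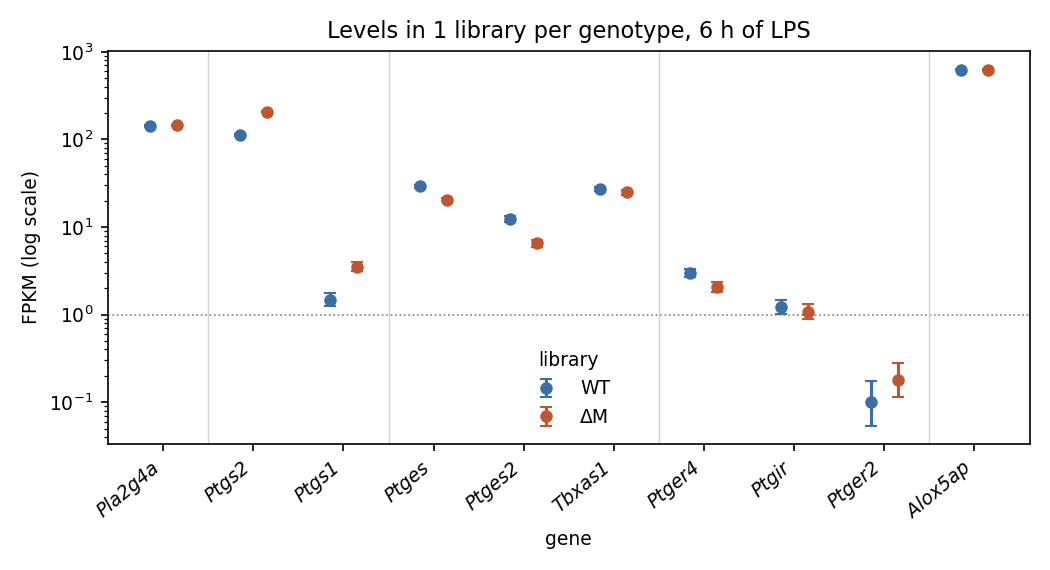
FPKM (log scale) of the 10 prostaglandin genes in the WT (blue) and the ΔM (orange) library, grouped from left to right as phospholipase, cyclooxygenases, terminal synthases, receptors and *Alox5ap*. Bars are approximate 95% Poisson counting intervals and the dotted line marks 1 FPKM. The levels span from 0.10 FPKM for *Ptger2* to 629 FPKM for *Alox5ap* in WT, and the intervals of the libraries are apart for *Ptgs2*, *Ptgs1*, *Ptges*, *Ptges2* and *Ptger4*.

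The levels of the 10 genes differed far more from each other than between the genotypes. In WT the order from high to low was *Alox5ap*, *Pla2g4a*, *Ptgs2*, *Ptges*, *Tbxas1*, *Ptges2*, *Ptger4*, *Ptgs1*, *Ptgir* and *Ptger2*. Of the neighbours in this order, the counting intervals overlapped for *Ptges* and *Tbxas1* and for *Ptgs1* and *Ptgir*, and were apart for all other pairs. In ΔM, *Ptgs2* stood above *Pla2g4a*, *Tbxas1* above *Ptges*, and *Ptgs1* above *Ptger4*, with intervals that were apart in each of the 3 pairs. The summed FPKM of the 10 genes was 958 in WT and 1041 in ΔM. *Alox5ap* made up 65.7% of this sum in WT and 60.4% in ΔM, and the share of *Ptgs2* was 11.7% in WT and 20.0% in ΔM.

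*Pla2g4a* (ENSMUSG00000056220) encodes cytosolic phospholipase A2, the enzyme that releases arachidonic acid from the sn-2 position of membrane phospholipids. It lies on the minus strand of mm9 at chr1:151676748-151808420 and was at 142 FPKM (140.0 to 144.7) in WT and 145 FPKM (142.9 to 148) in ΔM. These levels rank 256 and 251 among 22259 protein-coding genes. The counting intervals of the libraries overlapped, and the ratio of ΔM to WT was 1.02 (0.997 to 1.05). This enzyme was among the abundant mRNAs in both genotypes, with no difference detectable at this depth. *Pla2g4a* is also on the list of genes with TTP binding sites at 6 h of LPS that was read here, but its listed sites lie in introns of the annotation. The longest is printed on the minus strand as DNA, because it holds no ATTTA, the core of the AU-rich element, while the 3′ UTR of the same gene holds 4.
Pla2g4a intronic TTP site, chr1:151730464-151730484: gcatattactcagtttgtttt

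*Ptgs2* (ENSMUSG00000032487) encodes cyclooxygenase-2, the inducible enzyme that makes prostaglandin H2 in stimulated macrophages. It lies on the plus strand at chr1:151947254-151955140. Its start is 138833 nt from the start of *Pla2g4a* on the minus strand, with no protein-coding gene annotated between them. *Ptgs2* mRNA was at 112 FPKM (110.6 to 114.1) in WT and 208 FPKM (205.4 to 210.3) in ΔM. These values correspond to about 16400 and 26900 fragments, so *Ptgs2* was the most precisely measured of the 10 genes. The ratio of ΔM to WT was 1.85 (1.81 to 1.89), and the gene moved from rank 340 to rank 162 among the protein-coding genes. Relative to *Pla2g4a*, whose level was nearly the same in both libraries, the *Ptgs2* level was 0.789 in WT and 1.43 in ΔM.

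The 3′ UTR of *Ptgs2* is shown here because it carries more ATTTA than that of any other of the 10 genes and the listed TTP sites of this mRNA at 6 h of LPS. The sequences were taken from the study's site lists, matched the NCBIM37 (mm9) genome at their positions, and are printed on the plus strand as DNA, with each ATTTA in capitals. The proximal site (67 nt, chr1:151952909-151952975) begins at the end of the coding sequence and reaches nt 63 after the stop codon. It holds 7 ATTTA, and its repeated part is shown first. At 3 h of LPS, the repeated part, the downstream part of the proximal site and the distal site were each listed as a site of their own, and the downstream part is shown next. Another TTP site listed at 6 h (10 nt, chr1:151952980-151952989) lies 68 to 77 nt after the stop codon, holds no ATTTA and is not printed. The distal site (32 nt, chr1:151954321-151954352) lies 1409 to 1440 nt after the stop codon. The longest of 3 sites listed for HuR, another RNA-binding protein that binds AU-rich and U-rich sequences, falls within the distal site. The other 2 HuR sites, of 3 nt each, fall within the proximal TTP site.
Ptgs2 proximal TTP site, chr1:151952924-151952944: ccatATTTATTTATTTAtgtg
Ptgs2 proximal TTP site at 3 h, chr1:151952948-151952975: aATTTAATTTAattATTTAatATTTAta
Ptgs2 distal TTP site, chr1:151954334-151954346: ttttATTTAtaat
Ptgs2 distal HuR site, chr1:151954340-151954350: ttataattata
In the proximal window 3 ATTTA overlap by their end bases, whereas the distal TTP window holds 1 and the distal HuR window none.

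*Ptgs1* (ENSMUSG00000047250, plus strand, chr2:36085946-36107792) encodes cyclooxygenase-1, the constitutive isoform. Its mRNA was at 1.48 FPKM (1.25 to 1.75) in WT and 3.52 FPKM (3.14 to 3.95) in ΔM, from about 143 and 301 fragments. The intervals were apart, and the ratio of ΔM to WT was 2.38 (1.94 to 2.92), which is larger than that of *Ptgs2* but far less precise. The *Ptgs2* level was 75.9 times the *Ptgs1* level in WT and 59.1 times in ΔM. *Ptgs2* therefore made up 98.7% of the cyclooxygenase FPKM in WT and 98.3% in ΔM. The cyclooxygenases together had 113.8 FPKM in the WT and 211 FPKM in the ΔM library, and 95.5 FPKM of the difference came from *Ptgs2* and 2.04 FPKM from *Ptgs1*.

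*Ptges* (ENSMUSG00000050737, minus strand, chr2:30744991-30785383) encodes microsomal prostaglandin E synthase-1, the LPS-inducible enzyme that acts after cyclooxygenase-2. *Ptges* mRNA was at 29.1 FPKM (28.2 to 30.1) in WT and 20.5 FPKM (19.7 to 21.4) in ΔM. The intervals were apart, and the ratio of ΔM to WT was 0.704 (0.668 to 0.741), opposite in direction to *Ptgs2*. The level of *Ptgs2* relative to *Ptges* was therefore 3.86 in WT and 10.1 in ΔM. *Ptges2* (ENSMUSG00000026820, plus strand, chr2:32251416-32258259) encodes microsomal prostaglandin E synthase-2, which is regarded as constitutive. Its mRNA was at 12.3 FPKM (11.5 to 13.2) in WT and 6.49 FPKM (5.84 to 7.18) in ΔM, from about 795 and 371 fragments. With intervals apart, the WT level was 1.90-fold (1.68 to 2.15) that of ΔM, the largest difference towards WT among the 10 genes. The gene span of *Ptges*, introns included, overlaps that of the pseudogene *Gm13400* by 380 nt. *Gm13400* was at 0.45 and 0.51 FPKM in WT and ΔM. *Ptges* was the more abundant of the pair of synthases, at 2.36 times the *Ptges2* level in WT and 3.16 times in ΔM.

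*Tbxas1* (ENSMUSG00000029925, plus strand, chr6:38825403-39034584) encodes thromboxane A synthase, which uses the same intermediate as the prostaglandin E synthases. *Tbxas1* mRNA was at 27.2 FPKM (25.7 to 28.7) in WT and 25.0 FPKM (23.5 to 26.6) in ΔM, with overlapping intervals. Its ratio of ΔM to WT was 0.921. Against *Tbxas1*, the level of *Ptges* was 1.07 in WT and 0.819 in ΔM. The 3 terminal synthases together had 68.6 FPKM in the WT and 52.0 FPKM in the ΔM library, a ratio of 0.758, where the summed cyclooxygenase level had a ratio of 1.86. The gene span of *Tbxas1*, introns included, overlaps that of *Hipk2* on the opposite strand by 787 nt. Whether strand was used in counting is not stated, so reads of this stretch cannot be assigned to either gene.

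The receptor mRNAs were low in both libraries. *Ptger4* (ENSMUSG00000039942, minus strand, chr15:5156661-5194187) encodes EP4, a prostaglandin E2 receptor that signals through cyclic AMP. Its mRNA was at 2.99 FPKM (2.68 to 3.33) in WT and 2.07 FPKM (1.80 to 2.37) in ΔM. The intervals were apart, and the ratio of ΔM to WT was 0.692 (0.581 to 0.825), from about 342 and 210 fragments. *Ptger4* shares 11676 nt of its gene span, introns included, with *Ttc33* on the opposite strand. *Ttc33* had 7.18 FPKM in the WT and 5.86 FPKM in the ΔM library. The part of *Ttc33* reads in the value of *Ptger4* was not tested. *Ptgir* (ENSMUSG00000043017, plus strand, chr7:17491839-17496254) encodes the prostacyclin receptor IP. *Ptgir* mRNA was at 1.22 FPKM (1.02 to 1.45) in WT and 1.08 FPKM (0.882 to 1.32) in ΔM, with overlapping intervals.

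*Ptger2* (ENSMUSG00000037759, plus strand, chr14:45607870-45623495) encodes EP2, the other cyclic AMP-coupled prostaglandin E2 receptor. It was at 0.10 FPKM (0.0537 to 0.173) in WT and 0.18 FPKM (0.114 to 0.281) in ΔM, from about 12.9 and 20.6 fragments. At this depth a difference between the libraries was not detectable, since the interval of the ratio reached from 0.871 to 3.96. *Ptger2* was the only gene of the 10 with a mean under 1 FPKM. Its gene span, introns included, overlaps that of *Gm17173* on the opposite strand by 15626 nt, and *Gm17173* was at 0.02 FPKM in both libraries. The level of *Ptger4* was 29.9 times that of *Ptger2* in WT and 11.5 times in ΔM. Of the remaining prostaglandin E2 receptors, *Ptger1* had 1.99 FPKM in the WT and 2.04 FPKM in the ΔM library and *Ptger3* at 0.06 and 0.03 FPKM. The summed level of the 4 receptors was 5.14 FPKM for WT and 4.32 FPKM for ΔM, and *Ptger4* had the largest absolute difference of the 4.

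*Alox5ap* (ENSMUSG00000060063, plus strand, chr5:150076634-150099621) encodes the 5-lipoxygenase-activating protein, which presents arachidonic acid to 5-lipoxygenase for leukotriene synthesis. It was at 629 FPKM (614.5 to 643.9) in WT and 628 FPKM (613 to 644.3) in ΔM, rank 32 among the protein-coding genes in both libraries. The intervals overlapped almost entirely, and the ratio of ΔM to WT was 0.999 (0.965 to 1.03). The enzyme it serves was much lower, with *Alox5* at 1.99 FPKM (1.66 to 2.36) in WT and 1.89 FPKM (1.55 to 2.28) in ΔM.

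To place these differences among all genes, 1 FPKM was added to both values of each gene and ΔM was divided by WT on the log2 scale, for the 10765 genes whose mean reached 1 FPKM. Of the 10 prostaglandin genes 9 passed this filter. On this scale *Ptgs2* was at 0.88, *Ptgs1* at 0.87, *Ptges2* at -0.83, *Ptges* at -0.49 and *Ptger4* at -0.38. *Tbxas1*, *Ptgir*, *Pla2g4a* and *Alox5ap* lay between -0.11 and 0.03. None of the 9 was at least 2-fold higher or lower, whereas 5.69% of all genes tested were at least 2-fold higher in ΔM and 3.61% at least 2-fold lower (613 and 389 genes). At a fold of 1.5, 2 of the 9 were higher (*Ptgs2* and *Ptgs1*), against 11.2% of all genes, and 1 was lower (*Ptges2*), against 7.51%. The median over the 9 was -0.09 and over all genes tested 0.03. *Ptgs2* was not an extreme of the table, since 6.59% of the genes tested had a ratio at least as high. A ratio at least as low as that of *Ptges2* was found for 4.37%, as low as that of *Ptges* for 9.51%, and as low as that of *Ptger4* for 13.1%.

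The added 1 FPKM understates the change of low genes such as *Ptgs1*, which without it was at 1.25 and thus past 2-fold. When both libraries were scaled to the same FPKM sum, the median over all genes shifted from 0.03 to -0.33 and the split of 2-fold genes from 613 higher and 389 lower to 358 higher and 661 lower. On that scale *Ptgs2* was at 0.44 and *Ptges2* at -1.21, past 2-fold. Relative to the median of all genes, the directions of *Ptgs2*, *Ptgs1*, *Ptges*, *Ptges2* and *Ptger4* were the same on both scales.

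**Figure D2:**
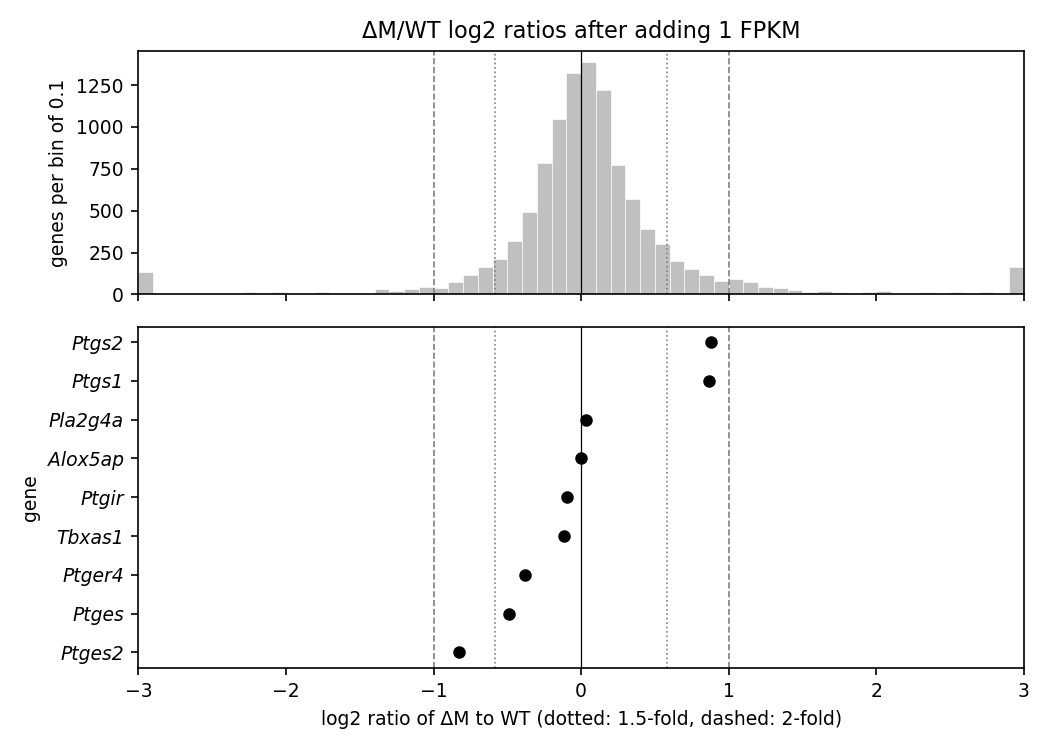
Top, number of genes per bin of log2 ratio of ΔM to WT (after adding 1 FPKM) over 10765 genes, with values beyond 3 in either direction collected in the outermost bins; bottom, the same ratio for the 9 prostaglandin genes that passed the filter. Dotted lines mark 1.5-fold and dashed lines 2-fold. *Ptgs2* and *Ptgs1* lie between 1.5-fold and 2-fold higher, *Ptges2* between 1.5-fold and 2-fold lower.

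The 3′ UTRs were compared because the study concerns a protein that binds AU-rich elements. ATTTA and the longer TATTTAT, which contains it, were counted on the sense strand of the annotated transcript with the longest coding sequence, overlapping matches included. The 3′ UTR of *Ptgs2* (2228 nt) held 12 ATTTA and 6 TATTTAT, of which 7 and 4 lay within the first 63 nt after the stop codon, the region of the proximal site shown above. Among 7938 tested genes with an annotated 3′ UTR, 2.52% held at least 12 ATTTA and 0.176% at least 6 TATTTAT. Among the 1084 genes with a 3′ UTR of 0.8 to 1.25 times its length the median was 4 ATTTA, and 2.21% held at least 12.

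The other 9 genes held fewer motifs. The 3′ UTR of *Ptger2* (1825 nt) held 6 ATTTA and 1 TATTTAT, and that of *Ptger4* (1233 nt) 5 ATTTA and 2 TATTTAT. That of *Pla2g4a* (443 nt) held 4 ATTTA, that of *Ptgir* 2 and that of *Alox5ap* 1, and none of these held TATTTAT. Per kilobase of 3′ UTR, *Pla2g4a* had 9.03 ATTTA and *Ptgs2* 5.39. No ATTTA was found in the 3′ UTRs of *Ptgs1* (921 nt), *Ptges* (3091 nt), *Ptges2* (411 nt) and *Tbxas1* (215 nt). For comparison, 63.2% of the 7938 genes held at least 1 ATTTA and 24.9% at least 1 TATTTAT. The genes with TATTTAT were *Ptgs2* (higher in ΔM), *Ptger4* (lower) and *Ptger2* (no detectable difference). Those without ATTTA were *Ptgs1* (higher), *Ptges* and *Ptges2* (both lower) and *Tbxas1* (overlapping intervals). *Pla2g4a*, *Ptgir* and *Alox5ap*, which held ATTTA but not TATTTAT, also had overlapping intervals. Whether the motifs bear on these levels was not tested. Apart from *Ptgs2* and, with sites in introns only, *Pla2g4a*, none of the 10 genes was among the 496 genes with TTP sites at 6 h of LPS that were read here. For scale, the whole table holds 37451 genes, of which 10765 had a mean of at least 1 FPKM. The share of these 10765 genes with a listed site was not calculated.

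**Figure D3:**
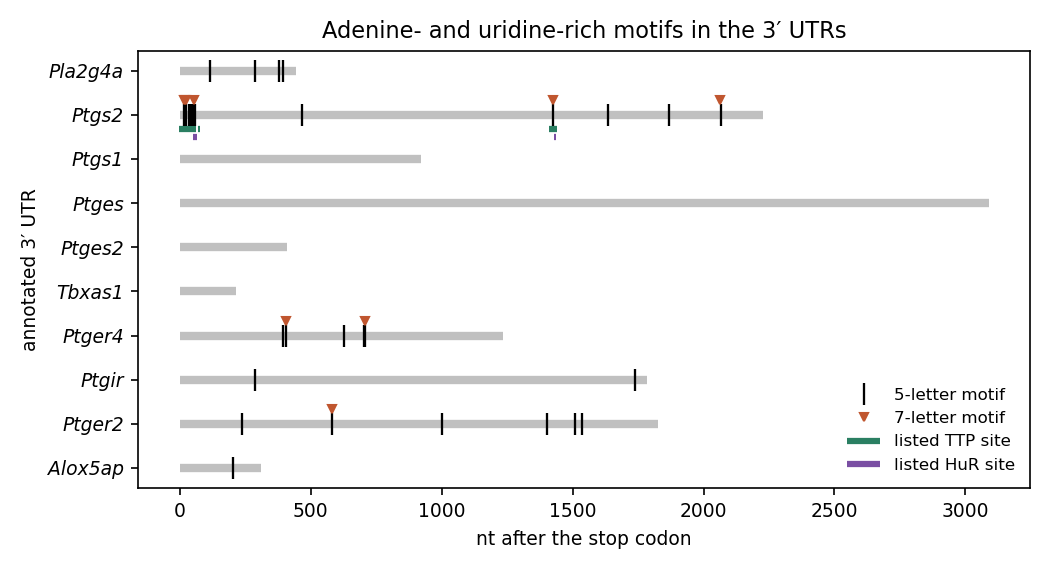
Annotated 3′ UTRs of the 10 prostaglandin genes drawn to scale (grey bars, nt after the stop codon), with black ticks for the 5-letter motif ATTTA and orange triangles for the 7-letter motif TATTTAT. Green and purple bars under *Ptgs2* are listed TTP and HuR sites at 6 h of LPS, drawn at least 8 nt wide. The cluster directly after the stop codon of *Ptgs2* has no counterpart in the other 9 genes.

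The rest of the eicosanoid pathway was covered by 6 lists with 44 genes in the table, of which 16 passed the filter. With 1 FPKM added, none of the 16 was at least 2-fold higher or lower, 1 was at least 1.5-fold higher and none 1.5-fold lower. As deposited, with nothing added, none passed 2-fold, 3 were at least 1.5-fold higher (*Pla2g12a*, *Pla2g7* and *Pla2g15*) and 1 was lower (*Akr1b3*), against 13.1% and 8.89% of 10324 genes above 0 in both libraries. With 1 FPKM added, their median log2 ratio was 0.02, against 0.03 over all genes tested. Of the 14 genes on the list of phospholipases A2 and related lipases, 4 passed the filter. *Pla2g7*, which encodes a secreted phospholipase that hydrolyses platelet-activating factor, was at 54.6 FPKM (52.2 to 57.2) in WT and 105.8 FPKM (102.2 to 109.6) in ΔM. Its log2 ratio of 0.94, with 1 FPKM added, was the largest of the 16 and close to that of *Ptgs2*. *Pla2g12a*, a secreted phospholipase gene named here because of its value, had the largest ratio of the 16 as deposited, 1.96 (1.37 to 2.92), at 0.93 and 1.82 FPKM. The lysosomal phospholipase *Pla2g15* was at 1.88 and 3.15 FPKM, and the diacylglycerol lipase *Daglb* at 6.84 and 6.37 FPKM in WT and ΔM.

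Of the other terminal synthases and reductases, 4 of 7 passed the filter, with log2 ratios from -0.42 to 0.22. *Hpgds*, the haematopoietic prostaglandin D synthase, was at 19.9 FPKM (19.2 to 20.8) in WT and 20.2 FPKM (19.4 to 21.1) in ΔM. It uses the same substrate as *Ptges* and *Ptges2*, and its ratio of ΔM to WT was 1.01 (0.956 to 1.07). The cytosolic prostaglandin E synthase *Ptges3* was at 3.60 FPKM (3.12 to 4.13) in WT and 2.92 FPKM (2.47 to 3.44) in ΔM. Summed over *Ptges*, *Ptges2* and *Ptges3*, the level was 45.1 FPKM for WT and 29.9 FPKM for ΔM, a ratio of 0.664, with *Ptges* holding 64.7% and 68.5%. *Akr1b3*, an aldose reductase with prostaglandin F synthase activity, was at 2.69 and 1.75 FPKM with overlapping intervals.

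Prostaglandin transport and breakdown had 3 of 6 genes tested. The reductase *Ptgr1*, which inactivates 15-keto-prostaglandins and leukotriene B4, was at 7.90 FPKM (7.29 to 8.56) in WT and 5.81 FPKM (5.25 to 6.41) in ΔM. Its relative *Ptgr2* was at 2.75 FPKM (2.32 to 3.23) and 3.73 FPKM (3.21 to 4.34), and the exporter *Abcc4* at 2.60 and 2.51 FPKM. In leukotriene synthesis 3 of 7 genes passed the filter, and besides *Alox5* these were the leukotriene A4 hydrolase *Lta4h* at 4.47 and 4.24 FPKM and the leukotriene C4 synthase *Ltc4s* at 2.74 and 3.45 FPKM in WT and ΔM, with overlapping intervals. *Ptger1* was the only gene tested of the 6 other prostanoid receptors, and *Cysltr1* the only one of 4 leukotriene receptors. *Cysltr1*, a receptor for cysteinyl leukotrienes, was at 2.88 FPKM (2.57 to 3.22) in WT and 4.31 FPKM (3.90 to 4.75) in ΔM. The tested genes of leukotriene synthesis thus differed by less than 1.5-fold between the libraries, with overlapping intervals. For *Cysltr1* the intervals were apart, and the ratio of ΔM to WT was 1.497 (1.29 to 1.74).

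**Figure D4:**
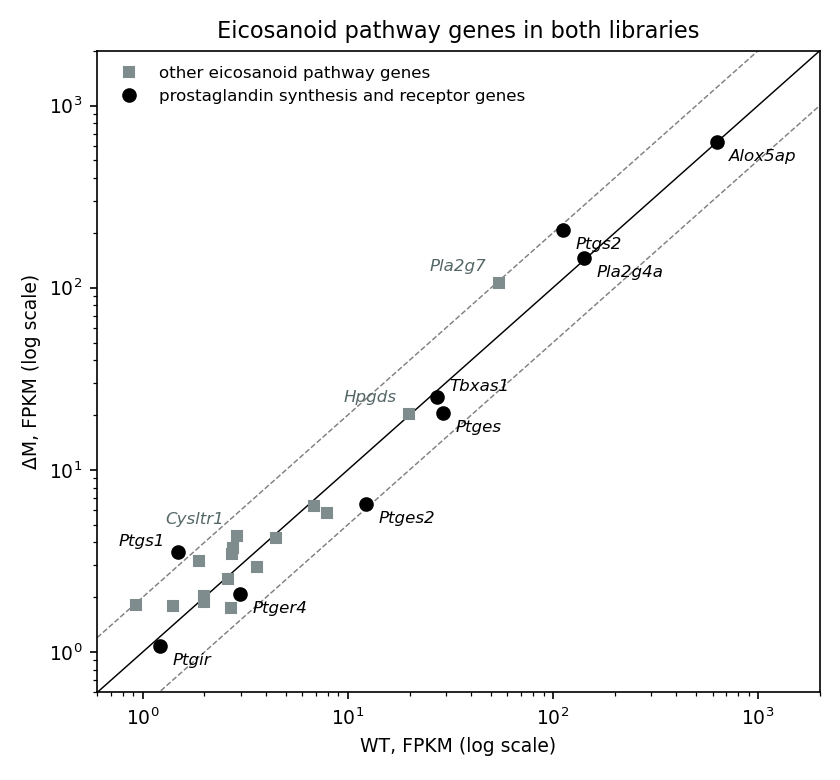
FPKM in WT (x axis) and ΔM (y axis), both on log scales, for the 9 prostaglandin genes (black circles) and the 16 other eicosanoid pathway genes (grey squares) whose mean reached 1 FPKM. The solid line marks equal levels and the dashed lines a 2-fold difference of the FPKMs as deposited. *Ptgs2* and *Pla2g7* lie just under the upper dashed line, *Ptgs1* above it and *Ptges2* just above the lower one.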

How the data were processed

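RNA of 1 WT and 1 ΔM BMDM sample was depleted of rRNA, fragmented and sequenced by the authors. Mapping to mm9 was done with Segemehl. From the uniquely mapped reads, the authors calculated FPKM values with Cufflinks over Ensembl exons. The deposited FPKM table has 1 value per gene and library with 2 decimals, and 1 gene has no number in ΔM. The header of the ΔM column has lost its first letter, and the column was assigned to the only sample other than WT. FPKMs are not counts, and 1 library per genotype leaves no replicates, so no test was run and no count model was used.

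For depth, the library size and the mean fragment length (201 nt for WT, 202 nt for ΔM) were searched for at which low FPKMs become whole fragments. Within 0.15 fragment, 94.4% of 1508 low values in WT and 94.8% of 1620 in ΔM were whole, where 30.0% would be by chance. Fragments per gene used the median annotated transcript length and are approximate. The search was tested on 3 simulated libraries of 22157 genes drawn from WT, with an error of at most 0.167%. Each simulated library had a single fragment length and was built with the formula that the search uses. This error therefore does not measure the error of the depth of the deposited libraries. Intervals of levels are exact Poisson intervals and those of ratios exact binomial intervals, at 95%.

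Ratios were taken as deposited, and log2 ratios with 1 FPKM added, for genes whose mean reached 1 FPKM. Gene positions, strands and 3′ UTRs are those of GENCODE M1 on NCBIM37, which held 37039 of the 37451 genes. In the binding site lists read, all 12 sites of the 10 genes matched that genome. The genes named are the 10, *Zfp36* and the 3 highest of each pathway list that passed the filter, together with any pathway gene past 2-fold, of which there were none. Cell type markers, overlapping genes and genes of the closing section are named in addition. The genes and the lists were chosen with earlier results of these data known. The alternatives covered the added FPKM, the scaling, the filter and the fold. Protein sequences were not used here. The tools were scipy 1.17.1, pandas 2.3.3 and numpy 2.4.6 under Python 3.11.15, with matplotlib 3.10.9 for figures.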

Additional observations from a re-analysis of the deposited data

How the results depend on the processing

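Of 159 recalculated values, 118 stayed within their limit and 41 moved further, and none past its threshold changed direction. The limit was the counting interval for a ratio, 1.5 times for a count and 0.1 for the median of the prostaglandin genes. The 20 shares of the summed FPKM are left out, since a common scaling cannot change them. No paired analysis was possible because neither genotype was replicated, and no replicate could be left out. The causes of the shifts were not tested beyond what each scaling does by construction. Values per gene are log2 ratios of ΔM to WT. With 0 FPKM added, *Ptgs1* was at 1.25, with 0.1 FPKM at 1.20 and with 5 FPKM at 0.39, so that 1 of the 10 genes was past 2-fold higher under the lower 2 settings. With 5 FPKM added, *Ptges2* was at -0.59, *Zfp36* at -1.69, and 226 of all genes were 2-fold lower. Centred on the median of all genes, *Ptgs2* was at 0.85. With the same FPKM sum in both libraries, *Ptgs1* was at 0.53, *Ptgs2* at 0.44, *Ptges* at -0.91, *Ptges2* at -1.21 (the 1 gene 2-fold lower), *Pla2g4a* at -0.41, *Tbxas1* at -0.54, *Ptger4* at -0.66, *Alox5ap* at -0.44, *Zfp36* at -2.32 and the median of the prostaglandin genes at -0.44 (otherwise -0.18 to -0.0015), with 358 of all genes higher and 661 lower. In that sum, protein-coding genes held 11.7% for WT and 8.56% for ΔM. With the same *Hprt* FPKM, *Ptgs2* was at 0.72, *Ptges* at -0.64, *Pla2g4a* at -0.13, *Tbxas1* at -0.27, *Alox5ap* at -0.16 and *Zfp36* at -2.06, and the median of all genes at -0.11. At a mean of at least 10 FPKM, 306 genes were higher and 130 lower. At a fold of 1.5, 2 of the prostaglandin genes were higher and 1 lower, 1 other pathway gene was higher, and of all genes 1203 were higher and 808 lower. At a fold of 1.5 with 0 FPKM added, an alternative chosen after seeing the data, the counts were 2 and 1 for the prostaglandin genes, 3 and 1 for the other pathway genes, and 1356 and 918 for all genes. The sign changed in 3 of 70 recalculated ratios of the 10 genes, *Pla2g4a* under the same FPKM sum and the same *Hprt* FPKM and *Alox5ap*, at 0.0024, under the same upper quartile. Depth limits the receptors and *Ptgs1* most, with *Ptger2* at about 12.9 and 20.6 fragments.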

Other observations

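Of the other eicosanoid pathway genes, 28 had a mean under 1 FPKM and entered no comparison above. Among these low genes 15 were higher in ΔM, 5 were lower and 8 were equal, 7 of them at 0 in both libraries. Over the 9271 protein-coding genes with a mean above 0 and under 1 FPKM, 47.4% were higher in ΔM and 45.3% lower. Unlike the 28, this set leaves out genes at 0 in both libraries, so the shares are not on the same basis. The counting intervals were apart for 6 of the 28, each with the higher level in ΔM, and these 6 genes are named because of their values. Over the 9263 of those protein-coding genes with an interval, the intervals were apart with the higher level in ΔM for 4.92% and in WT for 4.46%. *Mgll*, the monoacylglycerol lipase that frees arachidonic acid from an endocannabinoid, was at 0.26 FPKM (0.164 to 0.396) in WT and 1.18 FPKM (0.946 to 1.45) in ΔM. *Hpgd*, the dehydrogenase that starts the breakdown of prostaglandin E2, was at 0.19 FPKM (0.0977 to 0.350) in WT and 0.74 FPKM (0.523 to 1.02) in ΔM. *Cysltr2*, a receptor for cysteinyl leukotrienes like *Cysltr1*, was at 0.16 FPKM (0.0707 to 0.294) and 0.61 FPKM (0.408 to 0.853). *Alox15*, which encodes 12/15-lipoxygenase, had 0.12 FPKM in the WT and 0.40 FPKM in the ΔM library, and the diacylglycerol lipase gene *Dagla* had 0.01 and 0.25 FPKM. The secreted phospholipase gene *Pla2g5* was listed at 0 in WT and at 0.53 FPKM (0.342 to 0.810) in ΔM. Since there is 1 library per genotype, these differences have no replicate check.

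The lincRNA gene *7530420F21Rik* starts 249 nt from the start of *Ptgs2* on the opposite strand. Its levels were 0.08 FPKM for WT and 0.06 FPKM for ΔM, from about 6.46 and 4.30 fragments, so no difference was detectable, while *Ptgs2* on the other side of the shared start region was at 112 and 208 FPKM. The enzymes that make prostacyclin and, in its lipocalin form, prostaglandin D2 were listed at or near 0, with *Ptgis* at 0 and 0.08 FPKM and *Ptgds* at 0 in both libraries. The receptors *Ptgfr* and *Ptgdr* were also listed at 0 in both libraries, and *Tbxa2r*, the receptor of the product of *Tbxas1*, at 0 for WT and 0.02 FPKM for ΔM.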
